A study of Mus musculus with 6 samples.

Results

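Glycolysis was followed through 10 of its enzymes in hematopoietic stem cells (HSCs) that lacked or carried the ribosomal protein Rpl22. The genes were *Hk1*, *Hk2*, *Gpi1*, *Pfkl*, *Pfkp*, *Aldoa*, *Tpi1*, *Pgk1*, *Eno1* and *Ldha*, chosen by symbol as enzymes of the pathway. They were chosen with earlier results of these data known, and all 10 were found among the 34573 genes of the count table. HSCs, defined as Lineage-, Sca-1+, c-Kit+, CD48- and CD150+, were sorted from bone marrow. The donors were young adult *Rpl22*-/- mice (KO in the labels) and *Rpl22*+/+ mice (WT), both backcrossed to C57BL/6. The *Rpl22*-/- mice lack the gene in the germline, so every cell of the animal carries the change, and neither genotype received a treatment. Each genotype gave 3 libraries of polyadenylated RNA, and nothing in the labels says whether the 3 came from separate mice, so p-values measure the spread between these libraries.

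Glycolysis splits glucose into pyruvate in the cytosol and yields ATP without oxygen. Hexokinases trap glucose as glucose 6-phosphate, phosphofructokinases make the committed step, aldolase and triose phosphate isomerase give interconvertible trioses, phosphoglycerate kinase recovers ATP, enolase forms phosphoenolpyruvate and lactate dehydrogenase turns pyruvate into lactate. Quiescent HSCs reside in a marrow of low oxygen and are known for their reliance on glycolysis, and many of its genes are targets of the hypoxia-inducible factors (HIFs), which bind the core letters ACGTG or GCGTG.

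The libraries held between 9321123 and 13385850 reads on genes, the fewest in *Rpl22*+/+ replicate 3. Levels are given in CPM, read counts brought to a common library size after scaling by the trimmed mean of M-values (TMM). Values of a genotype follow the order of replicates 1, 2 and 3. *Rpl22* itself had 449, 527 and 546 reads in *Rpl22*-/- HSCs against 6890, 7001 and 5031 in *Rpl22*+/+ HSCs. All 15 listed HSC markers passed the filter on low counts, and of the B and T cell markers *Ms4a1*, *Igll1* and *Cd3e* were at 0 in every library. The 8 B cell markers summed to 27.1 to 29.6 CPM in *Rpl22*-/- libraries against 23.2 to 25.2 CPM, most of it *Cd79b*, and the 7 T cell markers to between 13.01 and 16.5 CPM in all 6 libraries. Markers of megakaryocytes and platelets summed to 1004 to 1266 CPM with *Rpl22* lost and to 723 to 943 CPM in *Rpl22*+/+ HSCs. Of 8 such markers 7 were tested, while *Gp6* was at 0. An adjusted p under 0.05 was found for 5, all higher in *Rpl22*-/- HSCs, against 3.28% of all genes tested. *Rpl22*-/- replicate 2 stood apart in the sum of the 9 neutrophil markers, 225 CPM against 66.9 to 108 CPM in the other 5 libraries. Of these markers, *Mpo*, *Elane* and *Ctsg* were highest there, at 101, 20.2 and 13.6 CPM. *Ltf*, *Camp* and *Ngp* were highest in *Rpl22*-/- replicate 3 instead, *S100a8* and *S100a9* in *Rpl22*+/+ replicate 1 and *Prtn3* in *Rpl22*+/+ replicate 3. *Rpl22*-/- replicate 2 was also highest in the sum of the S phase genes, with 3623 CPM against 2660 to 3114 CPM.

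Start sites are shown for *Hk1* and *Eno1*, the enzymes with an adjusted p under 0.05, and for *Pgk1* and *Ldha*, which hold ACGTG, as RefSeq gives them on GRCm38.p6, from 250 bases before to 50 bases after the start, read along the gene. Capitals mark ACGTG or GCGTG on either strand, and a palindromic CACGTG was counted on both strands.

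*Hk1* promoter, chr10:62379859-62380158, reverse strand: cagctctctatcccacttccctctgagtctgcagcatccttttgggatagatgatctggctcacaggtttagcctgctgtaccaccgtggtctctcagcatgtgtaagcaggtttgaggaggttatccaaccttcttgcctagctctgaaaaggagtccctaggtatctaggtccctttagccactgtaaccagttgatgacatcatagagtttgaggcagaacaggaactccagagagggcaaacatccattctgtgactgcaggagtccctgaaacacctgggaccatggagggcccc
*Eno1* promoter, chr4:150236458-150236757, forward strand: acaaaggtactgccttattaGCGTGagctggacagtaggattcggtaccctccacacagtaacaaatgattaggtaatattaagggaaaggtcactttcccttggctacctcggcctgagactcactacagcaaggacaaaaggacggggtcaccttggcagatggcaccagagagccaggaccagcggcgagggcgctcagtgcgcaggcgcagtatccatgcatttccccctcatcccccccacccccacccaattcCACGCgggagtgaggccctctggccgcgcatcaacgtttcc
*Pgk1* promoter, chrX:106186850-106187149, forward strand: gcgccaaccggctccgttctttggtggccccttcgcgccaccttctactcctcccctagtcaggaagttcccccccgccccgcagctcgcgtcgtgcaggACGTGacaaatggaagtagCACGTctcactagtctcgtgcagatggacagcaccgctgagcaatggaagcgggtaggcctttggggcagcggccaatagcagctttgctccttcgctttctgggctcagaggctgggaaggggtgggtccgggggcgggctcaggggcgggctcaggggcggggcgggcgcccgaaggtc
*Ldha* promoter, chr7:46845554-46845853, forward strand: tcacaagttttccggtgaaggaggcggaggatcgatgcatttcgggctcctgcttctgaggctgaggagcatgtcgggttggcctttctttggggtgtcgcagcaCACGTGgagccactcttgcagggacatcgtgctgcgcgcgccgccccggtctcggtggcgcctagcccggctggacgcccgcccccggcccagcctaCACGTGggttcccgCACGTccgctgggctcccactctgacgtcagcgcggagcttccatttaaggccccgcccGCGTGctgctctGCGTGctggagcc

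A window was found for each of the 10 enzymes. Where RefSeq gives several starts for a gene, only the most upstream was taken, here and for all promoters. It need not be the start used in HSCs. ACGTG occurred in 3 of them, those of *Hk2*, *Pgk1* and *Ldha*, against 19.6% of 27025 promoters of the same length. GCGTG occurred in 4, those of *Pfkl*, *Pfkp*, *Eno1* and *Ldha*, against 32.5%. Either was found in 6 of the 10 windows and in 43.8% of all promoters. The *Ldha* window held ACGTG 5 times and those of *Pgk1* and *Hk2* 2 times each, and the *Pfkp* window, not shown, held GCGTG 4 times, whereas that of *Hk1* held neither motif. These matches describe the letters in the windows and say nothing of whether a factor is bound there.

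Of the 10 enzymes, *Hk1* was higher and *Eno1* lower in *Rpl22*-/- HSCs with an adjusted p under 0.05. The other 8 did not pass this threshold, which with 3 libraries per genotype does not show that their levels were equal. All 10 passed the filter on low counts. Genes were compared with the quasi-likelihood test of edgeR, p-values were adjusted over all genes by the Benjamini-Hochberg method, and errors of log2 fold changes are given as the standard error (SE). With an adjusted p under 0.05, 1 enzyme was higher and 1 lower, against 3.28% and 2.29% of the 14004 genes tested and 5.57% in either direction. Positive log2 fold changes were found for 7 and negative ones for 3, and their median was 0.15, against −0.0068 over all genes tested. Once each library's trends on length and GC content were taken out, the median of the 10 was 0.06. The 3 libraries of each genotype did not overlap for 4 enzymes, *Hk1*, *Gpi1*, *Pfkp* and *Eno1*, while 26.9% of all genes tested had no overlap. In these and all other levels of sorted bulk samples, fewer cells of a type and less RNA per cell cannot be told apart.

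**Figure D1:**
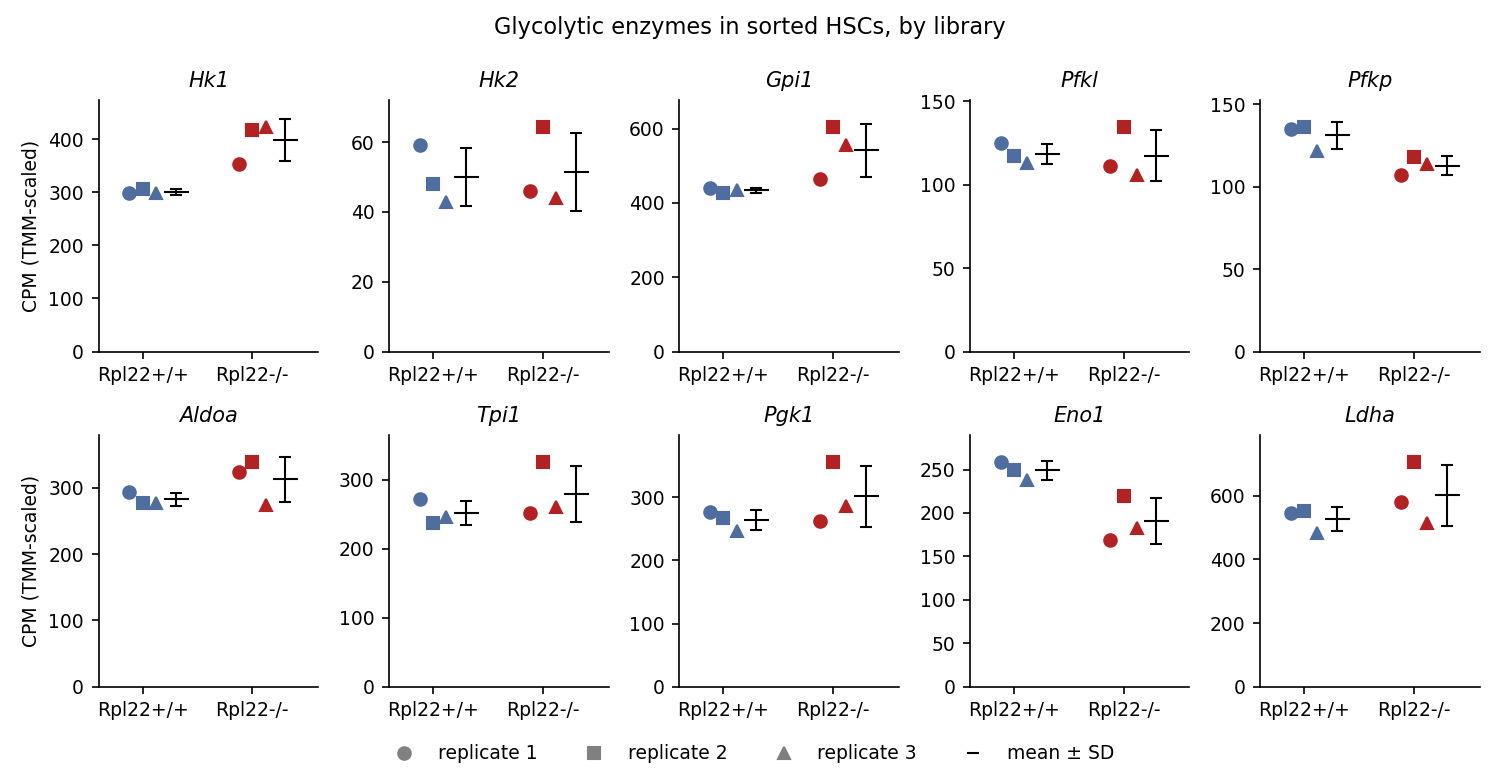
CPM of each enzyme on the vertical axis in the 3 *Rpl22*+/+ (blue) and 3 *Rpl22*-/- (red) libraries, with replicates as symbols and the mean ± SD in black. *Hk1* and *Gpi1* lie higher and *Pfkp* and *Eno1* lower in every *Rpl22*-/- library, and *Rpl22*-/- replicate 2 (red square) is the highest of the 3 *Rpl22*-/- libraries for 9 of the 10 enzymes.

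*Hk1*, the hexokinase bound to mitochondria in most tissues, lies at chr10:62268855-62379908 on GRCm38 (mm10), reverse strand. Its level was 353, 418 and 423 CPM in *Rpl22*-/- replicates 1, 2 and 3 and 298, 306 and 298 CPM in *Rpl22*+/+ replicates 1, 2 and 3. Every *Rpl22*-/- library was above every *Rpl22*+/+ library. The means were 398 ± 38.9 CPM (SD, n = 3) and 301 ± 5.04 CPM (SD, n = 3), and the log2 fold change was 0.41 (SE 0.0911, edgeR adjusted p = 0.0198). With 1 library left out the change stayed between 0.36 and 0.49, but the call was lost without *Rpl22*-/- replicate 3 (0.36, adjusted p = 0.0941) or *Rpl22*+/+ replicate 1, 2 or 3 (adjusted p = 0.0987, 0.0744 and 0.0796). 3 samples against 3 allow an exact two-sided permutation p of 0.1 at the least, which *Hk1* reached.

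*Hk2*, the hexokinase that responds to hypoxia and insulin, was expressed far below *Hk1*. Its level was 46.0, 64.4 and 44.1 CPM in *Rpl22*-/- HSCs against 59.2, 48.2 and 42.8 CPM in *Rpl22*+/+ HSCs, so that the genotypes overlapped, with *Rpl22*-/- replicate 2 highest and *Rpl22*+/+ replicate 3 lowest of all. The log2 fold change of 0.04 (SE 0.143, edgeR adjusted p = 0.912) turned to −0.16 without *Rpl22*-/- replicate 2, to −0.06 without *Rpl22*+/+ replicate 3 and to −0.01 with scaling by library size alone. Per length of exon, taken as reads per kilobase of the union of annotated exons in CPM (RPKM), *Hk1* made up 70.8%, 70.1% and 76.0% of the hexokinase level in *Rpl22*-/- HSCs against 66.4%, 68.8% and 68.7% in *Rpl22*+/+ HSCs. The *Hk1* share was thus higher in each *Rpl22*-/- library (exact two-sided permutation p = 0.1, the smallest possible). *Hk2* and the myeloid hexokinase *Hk3* shared nearly all of the rest, with 16.2% ± 2.47 (SD, n = 3) and 15.4% ± 1.39 (SD, n = 3) in *Rpl22*+/+ HSCs.

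*Gpi1*, which converts glucose 6-phosphate to fructose 6-phosphate, lies at chr7:34201330-34230336, reverse strand. It had 463, 605 and 556 CPM in *Rpl22*-/- HSCs against 440, 427 and 436 CPM in *Rpl22*+/+ HSCs. The *Rpl22*+/+ libraries lay close together, and every *Rpl22*-/- library was above them. The log2 fold change was 0.32 (SE 0.10), and its adjusted p of 0.0726 by edgeR missed the threshold. It passed with DESeq2 (adjusted p = 0.0244), without the filter on low counts (0.0189) and without *Rpl22*-/- replicate 1 (0.00585). *Gpi1* shares 741 exon bases, 11.48% of its exons, with *Gm26762*, a long non-coding RNA on the opposite strand. *Gm26762* has no row in the count table, and without a stated strand setting reads there cannot be told apart.

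At the committed step, *Pfkp* was lower on average in *Rpl22*-/- HSCs and *Pfkl* was close to equal. *Pfkp*, the platelet form of phosphofructokinase, had 107, 118 and 114 CPM in *Rpl22*-/- HSCs against 135, 136 and 122 CPM in *Rpl22*+/+ HSCs. Each *Rpl22*-/- value was below each *Rpl22*+/+ value, and the log2 fold change was −0.22 (SE 0.0841, unadjusted p = 0.0200, edgeR adjusted p = 0.137), or −0.13 with length and GC trends taken out. *Pfkp* shares 748 exon bases, 5.58% of its exons, with *Pitrm1* on the opposite strand, and without a stated strand setting reads there cannot be told apart. *Pfkl*, the liver form, had 111, 135 and 106 CPM in *Rpl22*-/- HSCs against 125, 117 and 113 CPM in *Rpl22*+/+ HSCs, with the *Rpl22*+/+ values inside the range of the *Rpl22*-/- values and a log2 fold change of −0.01 (SE 0.0968, adjusted p = 0.948). Its sign turned without *Rpl22*-/- replicate 1 (0.03) or 3 (0.05) or *Rpl22*+/+ replicate 1 (0.03).

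Per exon length, the muscle form *Pfkm* was the most abundant of the 3 phosphofructokinases in these HSCs. It took 49.8% ± 1.86 (SD, n = 3) of their summed RPKM in *Rpl22*+/+ HSCs, *Pfkl* 32.4% ± 1.25 (SD, n = 3) and *Pfkp* 17.9% ± 0.860 (SD, n = 3). With the longest transcript as the length, *Pfkm* and *Pfkl* held 40.3% and 40.4%, so the order of these 2 depended on the length used. The *Pfkp* share was lower in every *Rpl22*-/- library, with 15.8% ± 0.975 (SD, n = 3), an exact two-sided permutation p of 0.1.

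*Aldoa*, *Tpi1* and *Pgk1* were each a little higher on average in *Rpl22*-/- HSCs, none with an adjusted p under 0.05. *Aldoa*, which cleaves fructose 1,6-bisphosphate, had 325, 339 and 274 CPM in *Rpl22*-/- HSCs against 294, 278 and 277 CPM in *Rpl22*+/+ HSCs (log2 fold change 0.14, SE 0.0936, edgeR adjusted p = 0.391). *Rpl22*-/- replicate 3 was below all 3 *Rpl22*+/+ libraries, and the change was 0.23 without it and 0.08 without *Rpl22*-/- replicate 2. *Tpi1*, the isomerase of the triose phosphates, had 252, 326 and 260 CPM against 272, 237 and 247 CPM (0.15, SE 0.104, adjusted p = 0.430). *Pgk1*, the first ATP-yielding kinase of the pathway, had 263, 356 and 287 CPM against 277, 267 and 247 CPM (0.20, SE 0.107, adjusted p = 0.295). In both, *Rpl22*-/- replicate 2 was well above the other 5 libraries, and without it their log2 fold changes were 0.02 and 0.06. With length and GC trends taken out, *Aldoa*, *Tpi1* and *Pgk1* were at 0.05, 0.06 and 0.12.

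*Ldha*, the lactate dehydrogenase subunit that favours lactate formation, was the most abundant of the 10 per length. It had 582, 707 and 516 CPM in *Rpl22*-/- HSCs against 546, 552 and 485 CPM in *Rpl22*+/+ HSCs, with overlap between the genotypes (log2 fold change 0.19, SE 0.111, edgeR adjusted p = 0.335). Without *Rpl22*-/- replicate 2 the change was 0.06. Its share of the lactate dehydrogenase RPKM was 83.2%, 86.4% and 83.0% in *Rpl22*-/- HSCs against 80.6%, 81.9% and 78.3% in *Rpl22*+/+ HSCs. The shares did not overlap (exact two-sided permutation p = 0.1, the smallest possible). The family was taken as *Ldha*, *Ldhb* and *Ldhc*, without the D-lactate dehydrogenase *Ldhd*, which had 12.1 ± 1.29 RPKM (SD, n = 3) in *Rpl22*+/+ HSCs. *Ldhb*, the subunit that favours pyruvate, was at 39.1 ± 2.01 RPKM (SD, n = 3) there and had a log2 fold change of −0.21 (SE 0.0908, adjusted p = 0.192).

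**Figure D2:**
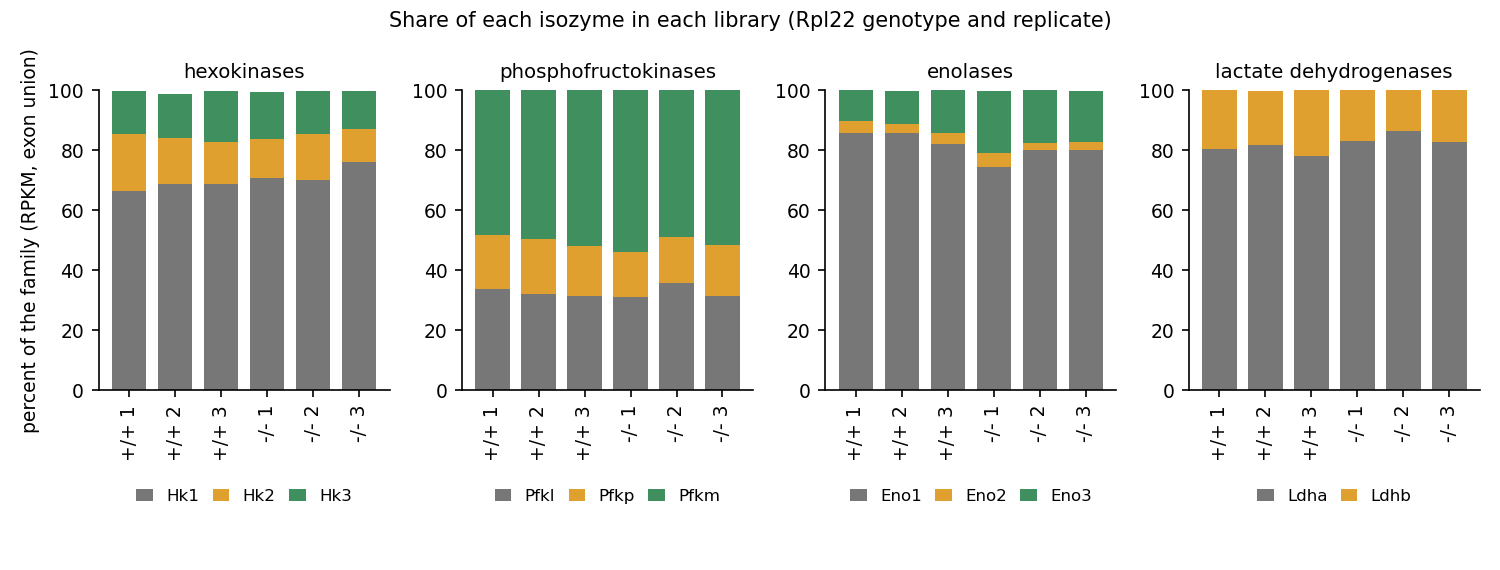
Percent of each isozyme family's RPKM, on exon union length, in each library, labelled by *Rpl22* genotype and replicate. The *Hk1* and *Ldha* shares (grey) are higher and the *Eno1* share (grey) lower in each *Rpl22*-/- library than in any *Rpl22*+/+ library, and *Pfkm* is the largest part of the phosphofructokinases; isozymes under 2% in every library are not drawn.

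*Eno1*, the main enolase outside muscle and neurons, lies at chr4:150236721-150248879, forward strand. Its level was 168, 220 and 183 CPM in *Rpl22*-/- replicates 1, 2 and 3 and 259, 250 and 238 CPM in *Rpl22*+/+ replicates 1, 2 and 3. All 3 *Rpl22*-/- libraries were below the *Rpl22*+/+ libraries. The means were 190 ± 26.5 CPM (SD, n = 3) and 249 ± 10.5 CPM (SD, n = 3), and the log2 fold change was −0.39 (SE 0.0990, edgeR adjusted p = 0.0332). The call held without *Rpl22*-/- replicate 2 (−0.50) and was lost without *Rpl22*-/- replicate 1 or 3 (adjusted p = 0.0502 and 0.135) or *Rpl22*+/+ replicate 1, 2 or 3 (0.145, 0.109 and 0.0763).

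Aligning transcripts found 4 near-identical copies of *Eno1* elsewhere in the genome, 2 of them with rows in the count table. *Gm5506*, annotated as the protein-coding gene *Eno1b* on the forward strand of chromosome 18 from 48045335 to 48048412, differs from the *Eno1* transcript at 9 of 1736 aligned bases. It had 357, 425 and 329 reads in *Rpl22*-/- HSCs against 0, 6 and 0 in *Rpl22*+/+ HSCs. *Gm4735*, a processed pseudogene at chr2:80837141-80838442, differs at 5 of 1302 aligned bases and had 32, 27 and 36 reads against 6, 4 and 4. For *Gm4735* the log2 fold change was 2.61 (SE 0.423, edgeR adjusted p = 0.00443). *Gm5506* was thus read almost only in *Rpl22*-/- HSCs, and *Gm4735* was 6.24-fold higher there in mean CPM.

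Of the reads counted on *Eno1* and these copies together, the copies held 15.3%, 14.6% and 13.2% in *Rpl22*-/- HSCs against 0.178%, 0.320% and 0.175% in *Rpl22*+/+ HSCs. Mean *Eno1* was 58.7 CPM lower and the copies 31.3 CPM higher in *Rpl22*-/- HSCs. Summed, they gave 199, 257 and 211 CPM in *Rpl22*-/- HSCs against 259, 251 and 238 CPM in *Rpl22*+/+ HSCs. The genotypes then overlapped, since *Rpl22*-/- replicate 2 was above 2 of the *Rpl22*+/+ libraries. The log2 fold change of the sum was −0.17 (SE 0.0991, edgeR adjusted p = 0.338), and its adjusted p was between 0.0894 and 0.607 in 16 other ways of processing the counts. The change of the sum ran from −0.09 without *Rpl22*-/- replicate 1 to −0.29 without *Rpl22*-/- replicate 2. With the reads of the copies added, *Eno1* was thus no longer called.

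Few positions separated the copies from *Eno1*. Counted from the start of the longest *Eno1* transcript of 2027 bases, with the *Eno1* base first and the base of the copy last, *Gm4735* had T1124C, T1214G, A1454G, T1622C and C1631T. A read that covers none of these 5 positions matches both *Eno1* and *Gm4735* there, and the same holds for *Gm5506* away from its 9 differing bases. *Eno1* ends 2.08 megabases before *Rpl22* on the same chromosome, so alleles of *Eno1* inherited with the disrupted *Rpl22* locus and the loss of *Rpl22* cannot be told apart.

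**Figure D3:**
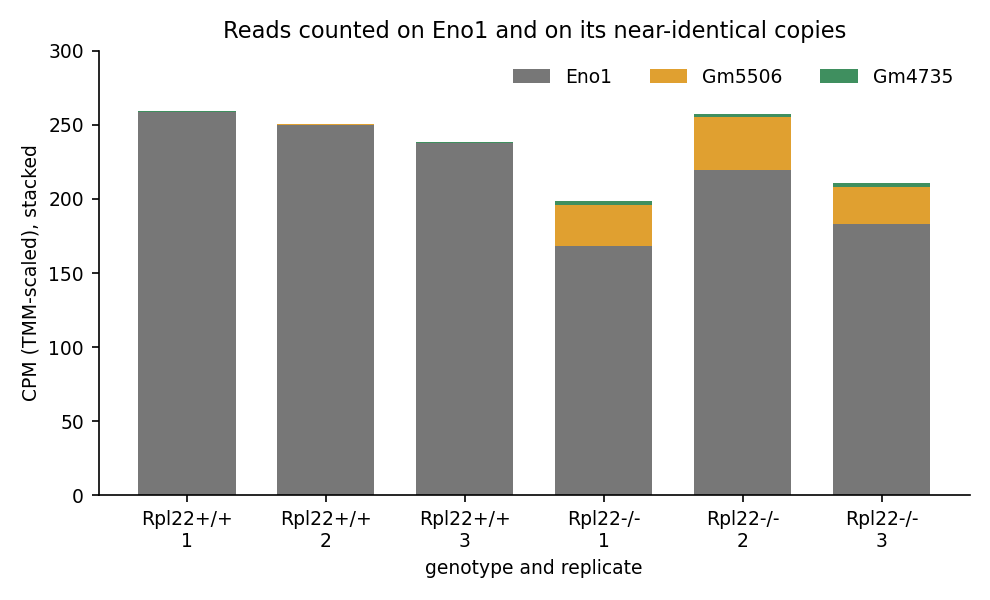
Stacked CPM of *Eno1* (grey) and of its near-identical copies *Gm5506* (orange) and *Gm4735* (green) in each library, by *Rpl22* genotype and replicate. The copies are visible in the 3 *Rpl22*-/- libraries and nearly absent in *Rpl22*+/+ HSCs, and the full height of *Rpl22*-/- replicate 2, 257 CPM, falls within the *Rpl22*+/+ range of 238 to 259 CPM.

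For the other enzymes few reads fell on copies. Copies were found for *Pgk1* (4), *Ldha* (4), *Gpi1* (1) and *Tpi1* (1), and none of those in the table reached 10 reads in a library. The largest share of reads on the copies of another enzyme was 0.238%, for *Pgk1* in *Rpl22*-/- replicate 3. *Eno1* also lost share within its family, from 84.7% ± 2.08 (SD, n = 3) of enolase RPKM in *Rpl22*+/+ HSCs to 78.3% ± 3.37 (SD, n = 3) in *Rpl22*-/- HSCs, a share that leaves out the copies. The muscle enolase *Eno3* had 11.8% ± 1.997 (SD, n = 3) and 18.5% ± 1.98 (SD, n = 3), with a log2 fold change of 0.38 (SE 0.163, adjusted p = 0.179).

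**Figure D4:**
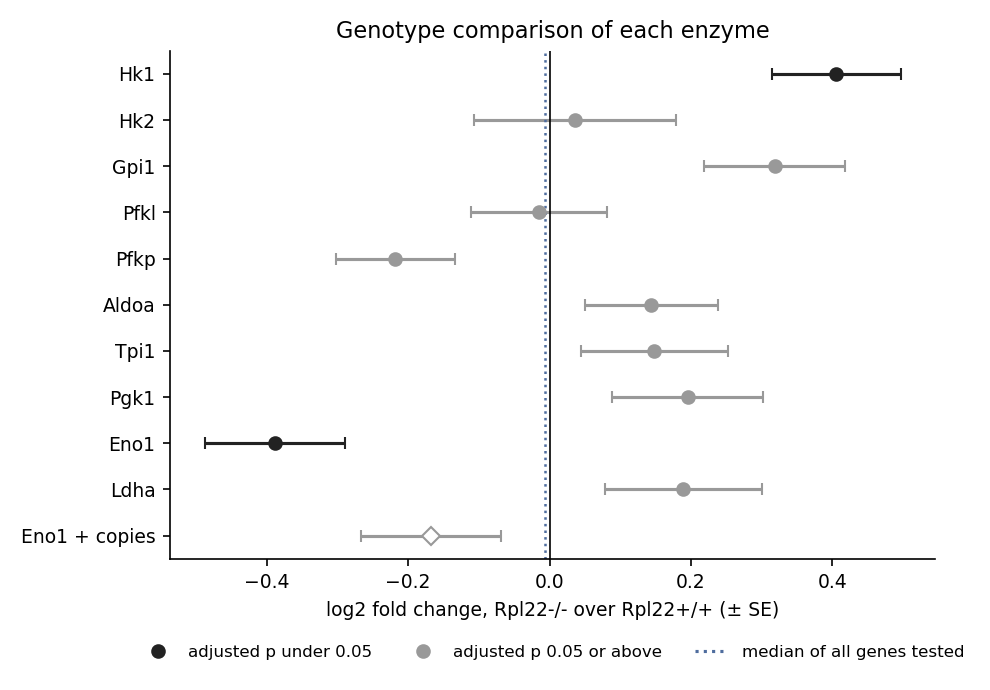
The log2 fold change of *Rpl22*-/- over *Rpl22*+/+ HSCs with its SE on the horizontal axis for the 10 enzymes in pathway order, and for *Eno1* summed with its copies (open diamond). *Hk1* (0.41) and *Eno1* (−0.39) passed the adjusted threshold (black), and the sum with the copies lies at −0.17.

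Levels were compared between enzymes as RPKM on exon union length. In *Rpl22*+/+ HSCs the order was *Ldha* at 159 ± 11.3 RPKM (SD, n = 3), *Pgk1* at 117 ± 6.97, *Aldoa* at 97.2 ± 3.45, *Tpi1* at 91.5 ± 6.47, *Gpi1* at 67.3 ± 1.02, *Eno1* at 46.3 ± 1.95, *Hk1* at 35.2 ± 0.591, *Pfkl* at 17.8 ± 0.933, *Pfkp* at 9.79 ± 0.594 and *Hk2* at 8.39 ± 1.41. The neighbours *Aldoa* and *Tpi1*, and *Pfkp* and *Hk2*, overlapped between libraries, and the rest were apart. Among these 10, each single hexokinase and phosphofructokinase gene was thus below each gene of the other steps in *Rpl22*+/+ HSCs. This does not rank the steps, since the isozymes of a step were not added up. *Pfkm*, also outside the 10, was at 27.3 ± 0.614 RPKM (SD, n = 3). *Pgam1*, the phosphoglycerate mutase, which is not one of the 10, was below *Hk1* at 28.8 ± 2.27 RPKM (SD, n = 3). With the longest transcript as the length, *Aldoa* and *Tpi1* stood above *Pgk1*, and the order of the other 7 was the same. In *Rpl22*-/- HSCs *Ldha* was at 182 ± 29.3 RPKM (SD, n = 3) and *Hk2* at 8.63 ± 1.88 (SD, n = 3). There *Hk1* was above *Eno1*, counted without its copies, in each library. Their means were 46.7 ± 4.55 and 35.4 ± 4.92 RPKM (SD, n = 3), and 93.1 and 93.9 RPKM with the longest transcript as the length.

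For 9 of the 10 enzymes the *Rpl22*-/- libraries spanned a wider range on the log2 scale than the *Rpl22*+/+ libraries. *Rpl22*-/- replicate 2 was the highest of its genotype for 9 of the 10 enzymes, and for *Hk1* it was replicate 3. Their summed level was 2671, 3288 and 2763 CPM in *Rpl22*-/- HSCs against 2705, 2619 and 2503 CPM in *Rpl22*+/+ HSCs. Replicates 1 and 3 of *Rpl22*-/- thus lay within or near the *Rpl22*+/+ range. Without *Rpl22*-/- replicate 2 the median log2 fold change of the 10 was 0.04, against 0.15 with all libraries. The same library had the highest sums of neutrophil markers and of S phase genes, as given above, and their part in the result was not tested.

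Among 10592 other genes with an average of at least 3 on the log2 CPM scale, the 5 whose pattern over the 6 libraries was most like the mean of the standardised enzymes were *Whsc2*, *Nt5m*, *Ifi30*, *Cltb* and *Samm50*. Their Pearson r with it was 0.992, 0.990, 0.987, 0.987 and 0.986 over 6 libraries, which share their depth and scaling with the enzymes. *Whsc2* had 60.2, 76.5 and 61.4 CPM in *Rpl22*-/- HSCs against 64.6, 61.0 and 59.3 CPM in *Rpl22*+/+ HSCs. It was highest in *Rpl22*-/- replicate 2, as were the other 4, and none of the 5 had an adjusted p under 0.05.

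The remaining steps and isozymes of glycolysis were taken from a list of 20 genes, of which 14 were tested. Of these, 1 rose and 1 fell, against 3.28% and 2.29% of all genes tested. *Gapdh*, the dehydrogenase between *Tpi1* and *Pgk1*, had 916, 1338 and 1149 CPM in *Rpl22*-/- HSCs against 762, 729 and 695 CPM in *Rpl22*+/+ HSCs. Every *Rpl22*-/- library was above the *Rpl22*+/+ libraries, and the log2 fold change of 0.64 (SE 0.120, edgeR adjusted p = 0.00898) was larger than that of any of the 10 enzymes. Without *Rpl22*-/- replicate 3 it was 0.63 with an adjusted p of 0.0533. *Gapdh* has 101 near-identical copies in the annotation, 53 of them in the table, and these held between 1.34% and 2.64% of the summed reads.

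*Pklr*, the pyruvate kinase of liver and red cells, had only 2, 4 and 0 reads in *Rpl22*-/- HSCs against 24, 16 and 8 in *Rpl22*+/+ HSCs (log2 fold change −3.01, SE 0.693, edgeR adjusted p = 0.0216). Its call was lost without *Rpl22*-/- replicate 3 (adjusted p = 0.0945) or *Rpl22*+/+ replicate 1 or 2 (0.123 and 0.0665), and DESeq2 gave it no adjusted p. Of 10 erythroid markers 5 were tested, 3 with a positive and 2 with a negative change, and their median was 0.24. Among them *Ermap* fell, with 10, 9 and 22 reads against 61, 35 and 21 (adjusted p = 0.0359), while *Hbb-b2* and *Epor* were at 0.78 and 0.24 (0.165 and 0.282). Their part in the result was not tested. *Pkm*, the pyruvate kinase of most cells, had 548, 796 and 682 CPM in *Rpl22*-/- HSCs against 582, 514 and 548 CPM in *Rpl22*+/+ HSCs. Those ranges overlapped, and the log2 fold change was 0.30 (SE 0.118, adjusted p = 0.143).

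Around the pathway few genes had an adjusted p under 0.05, as did 5.57% of all genes tested. With 3 libraries per genotype this does not show that the others were equal. Of 9 genes for glucose and lactate transport 7 were tested, of 11 regulators of glycolytic flux 9, of 14 genes for the entry of pyruvate into mitochondria all 14 and of 7 for gluconeogenesis 3, and none of these 33 had an adjusted p under 0.05 in edgeR, DESeq2 or limma-voom, while 4 had an unadjusted p under 0.05 in edgeR. The glucose transporters *Slc2a1* and *Slc2a3* had log2 fold changes of −0.15 and −0.17 (adjusted p = 0.486 and 0.297), and *Bsg*, the chaperone of lactate transporters, 0.18 (0.270). *Txnip*, an inhibitor of glucose uptake, and *Pfkfb2*, which makes the activator of phosphofructokinase, had 0.23 and −0.17 (0.323 and 0.394), and *9630033F20Rik*, the older symbol of *Tigar*, had −0.30 (0.560). At the mitochondrial gate *Mpc1*, a subunit of the pyruvate carrier, had 0.35 and the pyruvate dehydrogenase kinases *Pdk2* and *Pdk3* 0.40 and 0.23 (0.0985, 0.129 and 0.150). These had the 3 smallest p-values of the 14 genes of pyruvate entry. Of the 14, 6 had a positive and 8 a negative change, with a median of −0.0125. The smallest p of the 33 was that of *G6pc3*, of gluconeogenesis, with a log2 fold change of 0.29 (edgeR adjusted p = 0.0756). Every *Rpl22*-/- library was above every *Rpl22*+/+ library for *G6pc3*. Of the 3 gluconeogenesis genes tested, 2 had a positive and 1 a negative change.

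The pentose phosphate pathway, which leaves glycolysis at glucose 6-phosphate, had 13 genes listed and 11 tested. *Pgls*, its lactonase, averaged 72.7 ± 2.65 CPM in *Rpl22*-/- HSCs against 52.6 ± 3.72 CPM (SD, n = 3), with 71.5, 75.7 and 70.9 CPM in *Rpl22*-/- HSCs against 56.8, 50.1 and 50.8 CPM in *Rpl22*+/+ HSCs. Its log2 fold change of 0.47 passed the threshold (SE 0.0896, edgeR adjusted p = 0.0103), and the call was lost without *Rpl22*+/+ replicate 2 (adjusted p = 0.0548). In this list 7 of the 11 did not overlap between the genotypes, against 26.9% of all genes tested, and the median log2 fold change was 0.08. Without overlap, *G6pdx*, *Pgls*, *Pgd*, *Tkt* and *Taldo1* were higher and *H6pd* and *Rpe* lower in *Rpl22*-/- HSCs.

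Hypoxia-related genes outside glycolysis were taken as a further pair of lists. None of 9 regulators of the HIF pathway had an adjusted p under 0.05 in edgeR, DESeq2 or limma-voom, against 5.57% of all genes in edgeR. Unadjusted, 3 had an edgeR p under 0.05, namely *Egln3* (−0.39), *Hif3a* (−0.32) and *Hif1an* (−0.22). Negative log2 fold changes were found for 6 of the 9 and positive ones for 3. The other negative ones were *Vhl* (−0.23), *Hif1a* (−0.10) and *Arnt*, the partner of the HIF alpha subunits, at −0.18 (adjusted p = 0.231). The genotypes did not overlap for 5 of the 9, against 26.9% of all genes tested. Of 16 hypoxia-induced genes 14 were tested and 2 fell, against 2.29% of all genes tested. Of the 14, 0 rose in any of the 3 tools and 2 had a positive change with an unadjusted p under 0.05 in edgeR. *Ak4*, a mitochondrial adenylate kinase, had 25.6, 27.8 and 23.9 CPM in *Rpl22*-/- HSCs against 39.7, 40.3 and 28.9 CPM in *Rpl22*+/+ HSCs (log2 fold change −0.50, SE 0.135, edgeR adjusted p = 0.0423). *Ero1l*, an oxidase of the endoplasmic reticulum, had 61.0, 50.02 and 50.2 CPM against 72.3, 74.0 and 62.4 CPM (−0.37, SE 0.104, adjusted p = 0.0466). *Ak4* lost its call in 5 and *Ero1l* in 8 of the 17 other ways of processing, among them the removal of length and GC trends, where *Ak4* was at −0.50 (adjusted p = 0.0527) and *Ero1l* at −0.26 (adjusted p = 0.157).

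**Figure D5:**
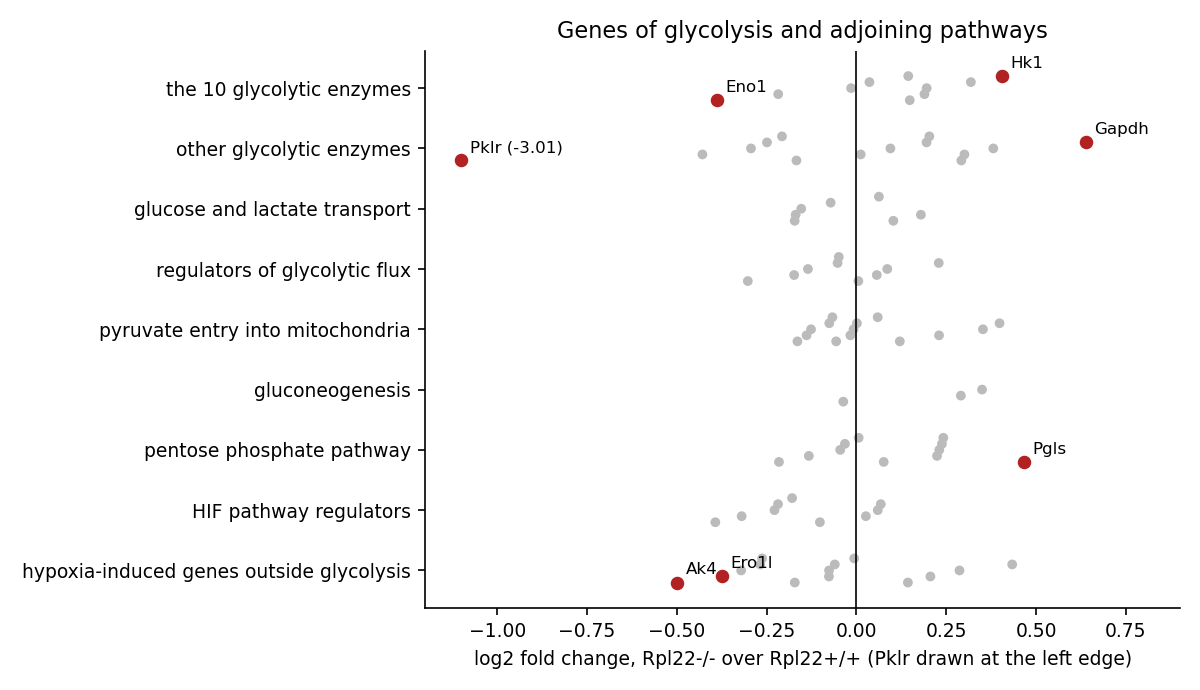
The log2 fold change of each tested gene on the horizontal axis, by gene list, with genes of adjusted p under 0.05 in red and named. Most genes lie within 0.25 of 0, and *Pklr*, at −3.01, is drawn at the left edge.

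Lists of other cells and states moved beside these results. Immediate early genes summed to between 431 and 621 CPM in *Rpl22*-/- HSCs and between 330 and 392 CPM in *Rpl22*+/+ HSCs. Of the 14 tested 6 rose, against 3.28% of all genes tested. These were *Fos*, *Junb*, *Jund*, *Ier5*, *Dusp1* and *Ppp1r15a*, with log2 fold changes from 0.45 to 0.94. The megakaryocyte genes that rose were *Pf4*, *Gp9*, *Gp1ba*, *Gp1bb* and *Itga2b*, from 0.46 to 0.82. Of the 9 neutrophil genes *Ctsg* and *Camp* rose, by 2.85 and 2.43 (edgeR adjusted p = 0.0282 and 0.0291), and 7 were not called. Their counts were low and uneven. *Ctsg* had 28, 163 and 48 reads in *Rpl22*-/- HSCs against 1, 10 and 19, and *Camp* 11, 31 and 47 against 10, 2 and 3. Among the 9, 8 had a positive change and 1, *S100a8*, a negative one (−0.21). Of the HSC markers *Gata2* rose by 0.39 and *Fgd5* fell by 0.41 on the log2 scale. Of the 24 S phase and mitotic genes, 0 were called by edgeR, against 5.57% of all genes tested. By limma-voom 0 were called and by DESeq2 2, *Plk1* and *Ube2c*, and 6 had an unadjusted p under 0.05 in edgeR. Their part in the changes of *Hk1*, *Eno1*, *Gapdh* and *Pgls* was not tested.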

How the data were processed

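RNA of HSCs from 3 *Rpl22*-/- and 3 *Rpl22*+/+ samples was sequenced after polyA selection with the TruSeq RNA kit. The authors aligned reads to mm10 with TopHat2 2.1.1 and deposited counts per gene from HTSeq, whole numbers without normalization. The HTSeq version, strand setting and gene annotation are not given in the sources used here. Reads that HTSeq left unassigned, 58.6% to 60.9% of a library, were kept out, among them 7.49% to 8.23% that did not align uniquely. Reads of near-identical copies can be lost or divided in this way. Every per-sample column was used, with 0 left over.

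The genotypes were compared in R 4.3.3 with edgeR 4.0.16 by its quasi-likelihood test with TMM factors and Benjamini-Hochberg adjustment, over 14004 genes that filterByExpr left at a minimum count of 10. A standard error is |log2 fold change|/√F. Exact permutation tests used log2(CPM + 0.5), or the shares themselves. Precision rests on 3 libraries per genotype. Lengths and positions came from GENCODE for GRCm38, in which 30999 of 34573 symbols were found, and promoters from RefSeq. Copies were transcripts of at least 95% identity over at least 300 bases by BLAST 2.17.0.

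The alternatives were DESeq2 1.42.0, limma-voom (limma 3.58.1), library size alone, upper-quartile or relative log expression factors, no filter, at least 10 counts in every library, each library left out, a replicate term, removal of trends on length and GC content (lowess, span 0.3) without and with that term, and copies summed with their gene. The fits were tested on simulated counts. The members and lists were chosen with earlier results of these data known. Named are the 10 enzymes, listed genes with an adjusted p under 0.05, the 3 smallest p-values of the lists for other glycolytic enzymes, transport, regulators and pyruvate entry, copies with at least 10 counts in a library, the 5 genes most alike and *Rpl22*. The others were named after their values were seen. Tables and figures used pandas 2.3.3, matplotlib 3.10.9, scipy 1.17.1 and numpy 2.4.6 under Python 3.11.15.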

Additional observations from a re-analysis of the deposited data

How the results depend on the processing

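With a single library left out, the number of enzymes called was between 0 and 2, and the genes called in the lists of other glycolytic enzymes and adjoining pathways were between 1 and 9. The log2 fold changes then ran from 0.36 to 0.49 for *Hk1*, from −0.16 to 0.18 for *Hk2*, from 0.23 to 0.42 for *Gpi1*, from −0.12 to 0.05 for *Pfkl* and from −0.50 to −0.30 for *Eno1*. *Hk2* turned negative without *Rpl22*-/- replicate 2 (−0.16) or *Rpl22*+/+ replicate 3 (−0.06) and with library size alone (−0.0093), and *Pfkl* turned positive without *Rpl22*-/- replicate 1 (0.03) or 3 (0.0539) or *Rpl22*+/+ replicate 1 (0.03). The cause was not tested.

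Other settings moved fewer results. DESeq2 called *Gpi1* (0.32), as did no filter on low counts (0.32), which raised the genes called in those lists to 5 from 3. Summing the copies left 1 enzyme called and put *Eno1* at −0.17. No row of *Gm5506* or *Gm4735* is left in that setting, and DESeq2 gave *Pklr* no adjusted p. With the longest transcript in place of the exon union, the *Rpl22*+/+ levels per length were 70.3 for *Hk1*, 136 for *Gpi1*, 31.8 for *Pfkl*, 15.1 for *Pfkp*, 183 for *Aldoa*, 157 for *Tpi1*, 144 for *Pgk1*, 123 for *Eno1* and 291 RPKM for *Ldha*. *Pfkp*, *Aldoa*, *Tpi1*, *Pgk1* and *Ldha* kept their direction and were not called in any of the 17 alternatives.

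No pairing by replicate number was seen, as the deviations of same-numbered samples correlated at −0.103, 0.055 and 0.045. The labels do not say whether samples were prepared in pairs. With a replicate block *Hk1* was at 0.40 and *Eno1* at −0.40, 2 enzymes were called, and no call of the 10 changed, while the count over all genes went from 780 to 904. That count was between 127 (without *Rpl22*-/- replicate 3) and 1720 (without *Rpl22*-/- replicate 1) with a library left out, 504 with both trends removed, 1057 with DESeq2 and 1422 with no filter. Calls higher in *Rpl22*-/- HSCs were 58.9% of the total, and 43.4% with library size alone.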
